A study of Homo sapiens with 12 samples.

Results

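The genes described here are 10 genes of antigen presentation by major histocompatibility complex (MHC) class II: CIITA, RFX5, CD74, HLA-DRA, HLA-DRB1, HLA-DPA1, HLA-DPB1, HLA-DQB1, HLA-DMA and HLA-DMB. They were chosen by symbol, and all 10 had a row among the 12725 genes of the deposited table. The study measured polyadenylated RNA of Ramos, an established B cell line from a human Burkitt lymphoma, to learn which transcripts change when microRNA-28 (miR-28) is expressed. In the 6 miR-28 libraries the cells carried miR-28 in pTRIPZ, a lentiviral vector that doxycycline switches on, and in the 6 scramble libraries they carried a scrambled sequence in the same vector. Both groups were selected with puromycin at 0.4 µg/ml, given doxycycline at 0.5 µg/ml for 2 days and sorted for the red fluorescent protein of the vector. The libraries form 6 numbered pairs, each of 1 miR-28 and 1 scramble library. Pairs 4, 5 and 6 belong to library batch 2 and pairs 1, 2 and 3 to library batch 1. The transduction label, whose meaning is not given, reads XENO 2 in pairs 2 and 6 and XENO 1 in pairs 1, 4 and 5, without a number in pair 3. The library descriptions name pair 4 as bis and pair 5 as tris of the sample number of pair 1, and pair 6 as bis of that of pair 2. Whether such pairs are repeats of 1 source is not stated, so the 6 pairs may not be independent. Nothing in the labels says that the libraries came from separate cultures, so the p-values measure only the spread between these samples, which may be technical.

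MHC class II molecules sit on the surface of B cells, macrophages and dendritic cells and show peptides of ingested proteins to CD4 T cells. Each is a pair of an alpha and a beta chain, which assembles in the endoplasmic reticulum on the invariant chain CD74 and travels with it to endosomes, where proteases degrade CD74 and HLA-DM exchanges its last fragment for a peptide. Transcription of these genes depends on a protein complex that binds the X and Y boxes of their promoters, with the RFX complex on the X box and NF-Y on the Y box, and on CIITA, a coactivator that binds no DNA itself and is recruited by that complex. B cells express CIITA without stimulation and lose it when they become plasma cells.

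The promoters are shown because class II transcription is known to run through these boxes. RefSeq promoter windows on GRCh38.p14, from 250 bases before to 50 bases after the annotated start, were found for 8 of the 10 genes. CIITA and HLA-DRA had no window and were not searched. They were searched on both strands for an X-like motif, CNAG followed after any 6 bases by ATG, and for ATTGG, the core of a Y box, which reads CCAAT on the other strand. The letters were chosen after these promoters had been read, so the counts are a description, and the motifs do not overlap each other in the stretches shown. The X-like motif was found in 5 of the 8 genes and ATTGG in 7, against 9.04% and 34.6% of all 35116 windows. A gene counted if any of its windows matched, whereas the background counted single windows. The shares are thus not in the same unit. ATTGG or CCAAT starting at most 40 bases after the end of the X-like motif was found in 4 of the 8 genes, against 0.672% of all windows. These were HLA-DRB1, HLA-DPB1, HLA-DQB1 and HLA-DMA. Of 6 other class II genes 3 had the combination, and of 15 genes of class I presentation 0 had it. In the stretches below, written 5′ to 3′ on the strand of the gene, capitals mark the X-like motif and the Y box.
HLA-DRB1: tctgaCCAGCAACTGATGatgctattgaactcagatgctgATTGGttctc
HLA-DPB1: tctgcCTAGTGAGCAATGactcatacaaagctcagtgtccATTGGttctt
HLA-DQB1: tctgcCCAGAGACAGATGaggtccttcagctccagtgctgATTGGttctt
HLA-DMA: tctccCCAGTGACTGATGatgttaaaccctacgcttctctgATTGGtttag
HLA-DMB: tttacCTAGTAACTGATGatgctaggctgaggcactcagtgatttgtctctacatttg
CD74: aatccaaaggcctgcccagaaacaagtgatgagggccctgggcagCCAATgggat

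The stretches lie at chr6:32589885-32589934 on the minus strand (HLA-DRB1), chr6:33075851-33075900 on the plus strand (HLA-DPB1), chr6:32666736-32666785 on the minus strand (HLA-DQB1), chr6:32953167-32953217 on the minus strand (HLA-DMA), chr6:32941066-32941123 on the minus strand (HLA-DMB) and chr5:150412954-150413008 on the minus strand (CD74). The bases between both motifs number 22 in HLA-DRB1, HLA-DPB1 and HLA-DQB1 and 23 in HLA-DMA. HLA-DMB had the X-like motif with no ATTGG or CCAAT starting within 40 bases after it. CD74 had CCAAT without a match to the X-like letters, and HLA-DPA1 held neither motif. No match says only that these letters are not in the window.

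The mature microRNA hsa-miR-28-3p is shown as a product of the miR-28 hairpin. Its RefSeq sequence lies at chr3:188688834-188688855 on the plus strand of GRCh38.p14, and capitals mark the seed, bases 2 to 8.
hsa-miR-28-3p: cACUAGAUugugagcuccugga
The complement of this seed, ATCTAGT, was searched in the longest annotated 3′ UTR of each gene. It was found in 0 of the 10 genes, a count near the 7.86% of 10765 genes with an annotated 3′ UTR that had it. The UTRs of the 10 genes ran from 251 bases in HLA-DMA to 12533 in CIITA. The sequence of miR-28-5p was not analysed here.

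Libraries held 15404730 to 37876636 reads over the 12725 genes. MIR28, the gene of the hairpin, was measured at 0.983 to 3.16 CPM, the read count scaled to library size with TMM factors, in the 6 miR-28 libraries and at 0 reads in the 6 scramble libraries, as the labels say. The B cell identity of the cells was visible in all 7 B cell markers listed and all 5 germinal centre and Burkitt markers, whereas 1 of 9 myeloid and 1 of 7 epithelial or stromal markers had a row. Of 10 T cell markers 4 had a row (CD28, TRBC2, ZAP70 and IL7R), with a summed level of 30.6 to 129.3 CPM in miR-28 and 10.8 to 96.6 CPM in scramble libraries, while the CD3 chains were not among the measured genes. The part of these genes in the results was not tested. The first principal component of all genes took 67.6% of the variance and placed pairs 3, 4 and 6 on one side and pairs 1, 2 and 5 on the other. The scramble library of pair 3 lay farthest out and had 7.45% of its reads on mitochondrial genes, against 1.19% to 3.43% in the other 11 libraries. In 6 of 6 pairs this share was lower in the miR-28 library, with a range of 1.19% to 3.43% in miR-28 and 1.54% to 7.45% in scramble libraries, and its part in the results was not tested. Because the scramble library of pair 3 stood apart, the fits and ratios were also computed without pair 3.

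CIITA (ENSG00000179583, GRCh38 chromosome 16, 10866222 to 10943021) is the master coactivator of class II transcription. It ranged from 37.7 to 68.3 CPM with a median of 47.1 in miR-28 libraries, and from 27.0 to 68.4 CPM with a median of 46.9 in scramble libraries. The groups overlapped over nearly their whole range, and pairs 1, 2 and 5 gave the 3 highest libraries of each group. Within pairs the log2 difference of CIITA, miR-28 minus scramble, was -0.39 in pair 1 and 0.62 in pair 6, with the other 4 pairs between them. CIITA in the miR-28 library exceeded its scramble partner in 4 of 6 pairs.

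RFX5 (ENSG00000143390, chromosome 1, 151340640 to 151347357) is the subunit of the RFX complex that binds the X box. It ranged from 137.3 to 219.6 CPM with a median of 200.6 in miR-28 libraries, and from 122.2 to 256.7 CPM with a median of 177.5 in scramble libraries. The groups overlapped, and the lowest library of each group was that of pair 4. The highest scramble library was that of pair 3, in which RFX5 stood at 256.7 CPM, against 216.0 CPM in its miR-28 partner.

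CD74 (ENSG00000019582, chromosome 5, 150401637 to 150412929), the invariant chain, was the most abundant of the 10 genes. It ranged from 753.4 to 1928 CPM with a median of 1192 in miR-28 libraries, and from 721.3 to 1699 CPM with a median of 1290 in scramble libraries. The libraries of pairs 1, 2 and 5 in both groups lay at 1434 CPM or more and those of pairs 3, 4 and 6 at 1013 CPM or less, with no overlap between these pairs. CD74 exceeded its scramble partner in 3 of 6 pairs.

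HLA-DRA (ENSG00000204287, chromosome 6, 32439842 to 32445046) encodes the alpha chain of HLA-DR, the most abundant class II molecule of B cells. It ranged from 188.1 to 452.1 CPM with a median of 267.2 in miR-28 libraries, and from 183.6 to 400.9 CPM with a median of 294.4 in scramble libraries. Pair 5 was highest and pair 6 lowest in both groups. HLA-DRB1 (ENSG00000196126, chromosome 6, 32578769 to 32589848), the beta chain, ranged from 50.3 to 87.6 CPM in miR-28 and from 55.6 to 81.9 CPM in scramble libraries. It is related to HLA-DRB5 and to the pseudogene HLA-DRB6. Their similarity was not measured here, and the assignment of reads between the 3 is uncertain.

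HLA-DPA1 (ENSG00000231389, chromosome 6, 33064569 to 33080775) and HLA-DPB1 (ENSG00000223865, chromosome 6, 33075926 to 33087201) encode the alpha and beta chains of HLA-DP. HLA-DPA1 ranged from 153.0 to 340.8 CPM with a median of 232.6 in miR-28 libraries, and from 165.0 to 334.6 CPM with a median of 231.8 in scramble libraries. HLA-DPB1 ranged from 32.5 to 72.1 CPM with a median of 46.5 in miR-28 libraries, and from 29.4 to 64.3 CPM with a median of 44.1 in scramble libraries. The groups overlapped for both chains, and both were highest in pair 5 and lowest in pair 4 by the mean of a pair. Their annotated spans overlap on opposite strands and no strand setting of the counting is given, so reads of the shared stretch cannot be assigned with certainty.

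HLA-DQB1 (ENSG00000179344, chromosome 6, 32659467 to 32668383), the beta chain of HLA-DQ, was close to the lower end of what the table holds. It ranged from 0.565 to 1.37 CPM with a median of 1.11 in miR-28 libraries, and from 0.805 to 1.44 CPM with a median of 1.09 in scramble libraries. The value of 3 reads was 0.0830 to 0.181 CPM, so each library held HLA-DQB1 reads, but few. HLA-DQB1 also shares reads with its close copy HLA-DQB2, which averaged 1.03 ± 0.337 CPM in miR-28 and 0.953 ± 0.321 CPM in scramble libraries (SD, n = 6 each).

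HLA-DMA (ENSG00000204257, chromosome 6, 32948613 to 32969094) and HLA-DMB (ENSG00000242574, chromosome 6, 32934629 to 32941070) encode HLA-DM, the endosomal catalyst of peptide exchange. HLA-DMA ranged from 49.7 to 84.5 CPM with a median of 62.2 in miR-28 libraries, and from 54.4 to 79.6 CPM with a median of 65.2 in scramble libraries. HLA-DMB ranged from 38.1 to 65.7 CPM with a median of 58.5 in miR-28 libraries, and from 34.5 to 68.0 CPM with a median of 48.8 in scramble libraries. The groups overlapped for both. HLA-DMB was the higher of a pair under miR-28 in 5 of 6 pairs, pair 1 being the exception, and HLA-DMA in 2 of 6.

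**Figure D1:**
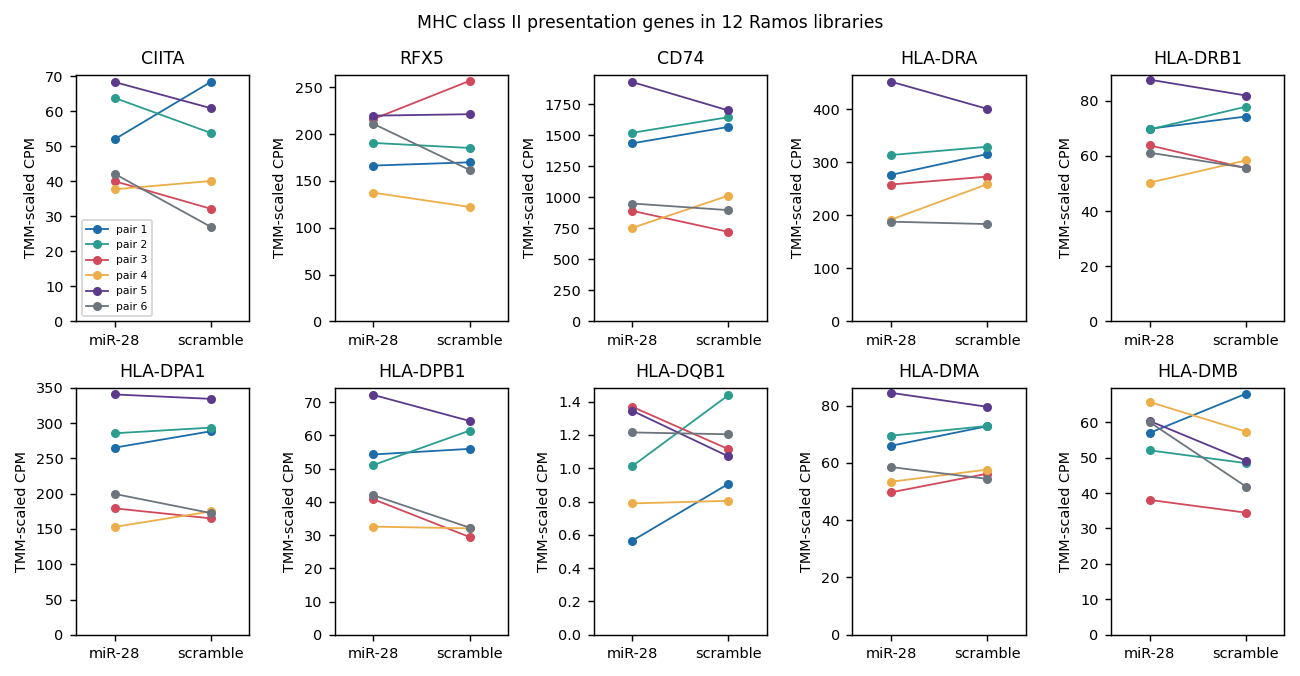
Level of each of the 10 genes (TMM-scaled CPM, linear axis from 0) in the miR-28 and scramble libraries, with a line joining both libraries of a pair and 1 colour per pair. The groups overlap in every panel, and the lines of pairs 1, 2 and 5 lie above those of pairs 3, 4 and 6 for CD74.

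The comparison of miR-28 with scramble found no change that passed the test in any of the 10 genes. In limma on log2(CPM + 1) with library batch as a term, 0 of 10 had a Benjamini-Hochberg adjusted p under 0.05, where 0.0157% of all genes did (MIR28 and SPCS3), and 0 of 10 had an unadjusted p under 0.05, where 0.33% of all genes did. In 0 of 10 were the miR-28 and scramble libraries without overlap, where 0.0629% of all genes were. The log2 fold changes of miR-28 over scramble ran from -0.09 for HLA-DRA to 0.16 for HLA-DMB, 5 above and 5 below 0, with a median of -0.0024, beside -0.010 over all genes. RNA levels of a pool of sorted cells cannot tell fewer cells of a kind from less RNA per cell.

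The intervals show what size of change the data leave room for. CIITA had a log2 fold change of 0.14, with a 95% interval of -0.39 to 0.68 (SE 0.245, limma adjusted p = 1). With the pair as a block in place of batch, which takes the distance between pairs out of the error, the interval was -0.12 to 0.41 and the limma adjusted p 0.660. For CD74 the log2 fold change was -0.016, with an interval of -0.66 to 0.63 with batch and -0.24 to 0.21 with the block. HLA-DRA, at -0.09, had intervals of -0.61 to 0.42 and -0.27 to 0.09. The narrowest interval with the block was that of HLA-DMA, at -0.20 to 0.10 around a log2 fold change of -0.05. HLA-DMB, at 0.16, had the smallest unadjusted p of the 10 in both fits, 0.363 with batch and 0.113 with the block, and a limma adjusted p of 0.607 with the block. With the block 0 of 10 genes passed the adjusted threshold in limma, beside 0.0236% of all genes, and 0 of 10 had an unadjusted p under 0.05, beside 7.3%.

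Count tests on the reads behind the values gave the same counts for the 10 genes. The edgeR quasi-likelihood test called 0 of 10 with batch, beside 0.0% of all genes (0.354% at an unadjusted p under 0.05), and 0 of 10 with the pair as a block, beside 0.00786% (6.94% unadjusted). DESeq2 with batch called 0 of 10, beside 0.0158% of the genes it tested (0.613% unadjusted). At an unadjusted p under 0.05 each of the 3 tests had 0 of the 10.

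**Figure D2:**
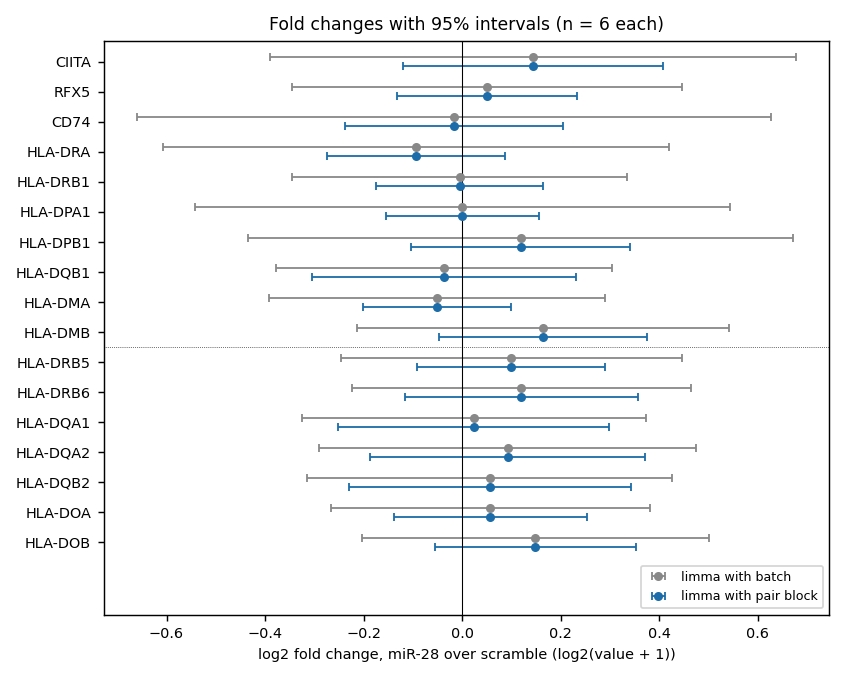
Log2 fold change of miR-28 over scramble with 95% intervals for the 10 genes and, under the dotted line, the 7 other measured class II genes, from limma with batch (grey) and limma with the pair as a block (blue), n = 6 libraries in each group. All intervals include 0, and those with the block are narrower.

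Without pair 3 the median log2 fold change of the 10 genes was -0.024 with 4 above 0, and without pairs 3 and 6 it was -0.070 with 2 above 0. In both cases 0 of 10 passed the test in limma.

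Within pairs the 10 genes tended to lie on the same side, but that side differed from pair to pair. The number of the 10 that were higher in the miR-28 library was 0 in pair 1, 3 in pair 2, 7 in pair 3, 3 in pair 4, 9 in pair 5 and 10 in pair 6. Over all genes the share higher in the miR-28 library lay between 46.3% and 52.2% in every pair. The median log2 difference of the 10 genes was -0.13 in pair 1, -0.07 in pair 2, 0.15 in pair 3, -0.10 in pair 4, 0.16 in pair 5 and 0.17 in pair 6. Of the 10 genes 0 had the same sign in all 6 pairs, a count near the 4.26% of all genes that did. The 10 genes are not independent measurements within a pair, and each pair is 1 observation, so these counts are a description.

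**Figure D3:**
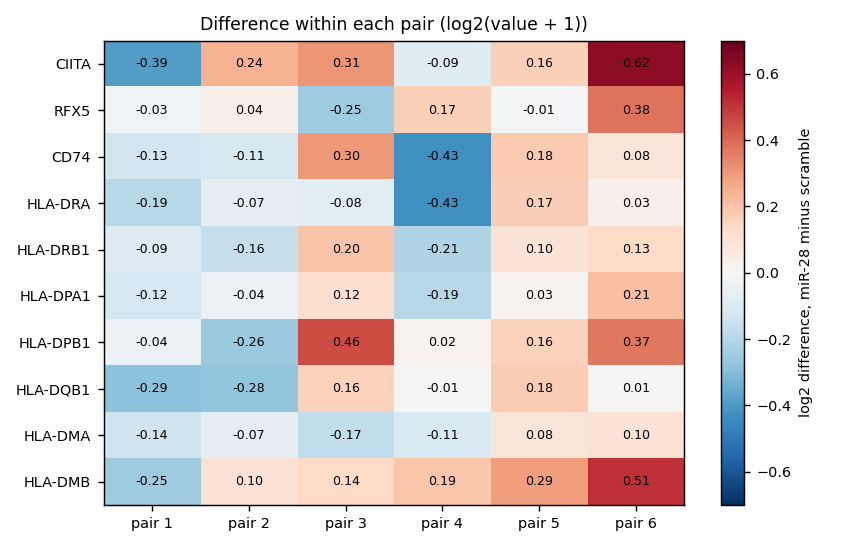
Difference in log2(CPM + 1) between the miR-28 and the scramble library of each pair, for the 10 genes (rows) and 6 pairs (columns), red where miR-28 is higher and blue where it is lower. Pair 1 has 0 of 10 genes higher in miR-28 and pair 6 has 10 of 10.

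Ratios between genes of the pathway were also taken within each library. The HLA-DPB1 to HLA-DPA1 ratio averaged 0.207 ± 0.0160 in miR-28 and 0.190 ± 0.0108 in scramble libraries, and the CD74 to HLA-DRA ratio 4.45 ± 0.688 in miR-28 and 4.27 ± 0.912 in scramble libraries (SD, n = 6 each). The HLA-DMB to HLA-DMA ratio averaged 0.891 ± 0.200 in miR-28 and 0.765 ± 0.165 in scramble libraries (SD, n = 6 each) and exceeded its scramble partner in 5 of 6 pairs. Its exact two-sided sign-flip permutation test over pairs gave p = 0.0625, or 0.229 after Benjamini-Hochberg adjustment over the 11 ratios computed. With 6 pairs, taken here as independent, 0.03125 is the smallest p this permutation test allows. Of the 11, the ratio of HLA-DRB5 to HLA-DRB1 had the smallest fold between its highest and lowest library, 1.207. That of HLA-DRB6 to HLA-DRB1 was close, at 1.214. The HLA-DRB5 to HLA-DRB1 ratio averaged 0.291 ± 0.00924 in miR-28 and 0.269 ± 0.0109 in scramble libraries (SD, n = 6 each). Both the HLA-DRB5 and the HLA-DRB6 ratio to HLA-DRB1 were higher in miR-28 in 5 of 6 pairs. Each had the same exact permutation p of 0.0625 and adjusted p of 0.229, and each depends on how reads were divided between related genes. None of the 11 ratios passed the test. Without pair 3 the mean log2 difference of the HLA-DMB to HLA-DMA ratio, miR-28 minus scramble, was 0.20, against 0.22 with it, and that of the HLA-DRB5 to HLA-DRB1 ratio 0.10, against 0.11.

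A further comparison asked whether the response to miR-28 differed between library batches. In the interaction term of limma 0 of 10 genes passed the test, beside 0.0% of all genes, and at an unadjusted p under 0.05 the counts were 0 of 10 and 0.0707% of all genes. With the pair as a block they were 0 of 10 and 1.34%. For HLA-DMB the log2 fold change within batch 2 was 0.33, against -0.0033 within batch 1. The difference of 0.33 had a 95% interval of -0.44 to 1.11. For CIITA these values were 0.23 within batch 2 and 0.054 within batch 1, with a difference of 0.18 and an interval of -0.95 to 1.31. The differences, batch 2 minus batch 1, were above 0 for 9 of the 10 genes, with a median of 0.14 beside -0.0080 over all genes, and all 10 intervals included 0. Because the 10 genes are not independent measurements within a pair, this count is a description.

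The XENO number and the library batch were compared on the mean of each pair. All pairs of the same XENO number also share a sample number in the library descriptions, so they may not be independent units. For XENO 2 against XENO 1, with 2 and 3 pairs, 0 of 10 genes passed the limma test, where 0.0% of all genes did, and 0 of 10 had an unadjusted p under 0.05, where 2.22% did. The log2 fold changes ran from -0.36 for HLA-DRA to 0.24 for HLA-DQB1. HLA-DRA stood at 185.9 and 321.6 CPM in the XENO 2 pairs, against 225.2 to 426.5 CPM in the 3 XENO 1 pairs, and its interval was -1.36 to 0.63. For batch 2 against batch 1, with 3 pairs each, 0 of 10 passed in limma, where 0.0% of all genes did, and 0 of 10 had an unadjusted p under 0.05, beside 0.0472%. The log2 fold changes ran from -0.18 for CIITA to 0.18 for HLA-DMB, and CIITA stood at 34.5 to 64.6 CPM in the batch 2 pairs, against 36.1 to 60.2 CPM in the batch 1 pairs. With 5 or 6 pairs the intervals were wide, and that of CIITA for batch 2 against batch 1 ran from -0.94 to 0.57.

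The largest differences of the 10 genes were those between pairs. By the mean of both libraries, HLA-DRA was 2.29 times as high in pair 5 as in pair 6, CD74 2.25 times as high in pair 5 as in pair 3, and HLA-DPB1 2.12 times as high in pair 5 as in pair 4. HLA-DMA had the smallest such ratio, 1.55. Of the 10 genes 7 were highest in pair 5, as were 29.8% of the 10388 genes with a mean of 5 CPM or more. The same number, 7 of 10, had pairs 1, 2 and 5 as their 3 highest, as did 33.3% of those genes: CIITA, CD74, HLA-DRA, HLA-DRB1, HLA-DPA1, HLA-DPB1 and HLA-DMA. RFX5 was highest in pair 3, HLA-DMB in pair 1 and HLA-DQB1 in pair 3. The median SD of the log2 pair means was 0.36 for the 10 genes and 0.32 over the 10388 genes, and the median SD of the differences within pairs was 0.21 for the 10 genes and 0.23 over those genes. This division of pairs is also that of the first principal component of all genes, which includes these genes, and neither the batch nor the XENO number follows it. The TMM factors of the libraries do follow it. They were 0.912 to 0.967 in pairs 1, 2 and 5 and 1.013 to 1.083 in pairs 3, 4 and 6, and their part was not tested.

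Of 19 measured genes of class I presentation 7 had pairs 1, 2 and 5 as the 3 highest and another 7 had pairs 3, 4 and 6. Both counts were near the shares of the 10388 genes, which were 33.3% for pairs 1, 2 and 5 and 30.3% for pairs 3, 4 and 6. B2M, the light chain of class I molecules, stood at 1213, 1334 and 876 CPM in the miR-28 libraries of pairs 3, 4 and 6 and at 1521, 1450 and 1140 CPM in their scramble libraries. In pairs 1, 2 and 5 it stood at 729, 744 and 735 CPM in miR-28 and at 700, 793 and 735 CPM in scramble libraries. The heavy chains HLA-B and HLA-C, named after their values were seen, were highest in pair 3. CALR, a chaperone of the endoplasmic reticulum that helps class I molecules fold, had pairs 1, 2 and 5 as its 3 highest, at 1118 CPM in the miR-28 and 1361 CPM in the scramble library of pair 5 and 252 CPM and 304 CPM in those of pair 3. The other lists ranged widely around the 33.3% of the 10388 genes. Pairs 1, 2 and 5 were the 3 highest in 2 of 7 other class II genes, 2 of 6 genes of the promoter complex beside RFX5 and 6 of 11 coactivators and chromatin regulators. The same held for 2 of 11 processing genes, 3 of 11 trafficking genes and 1 of 7 genes of costimulation and adhesion. It held for 0 of 10 regulators of CIITA and 0 of 8 genes of the interferon gamma pathway.

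**Figure D4:**
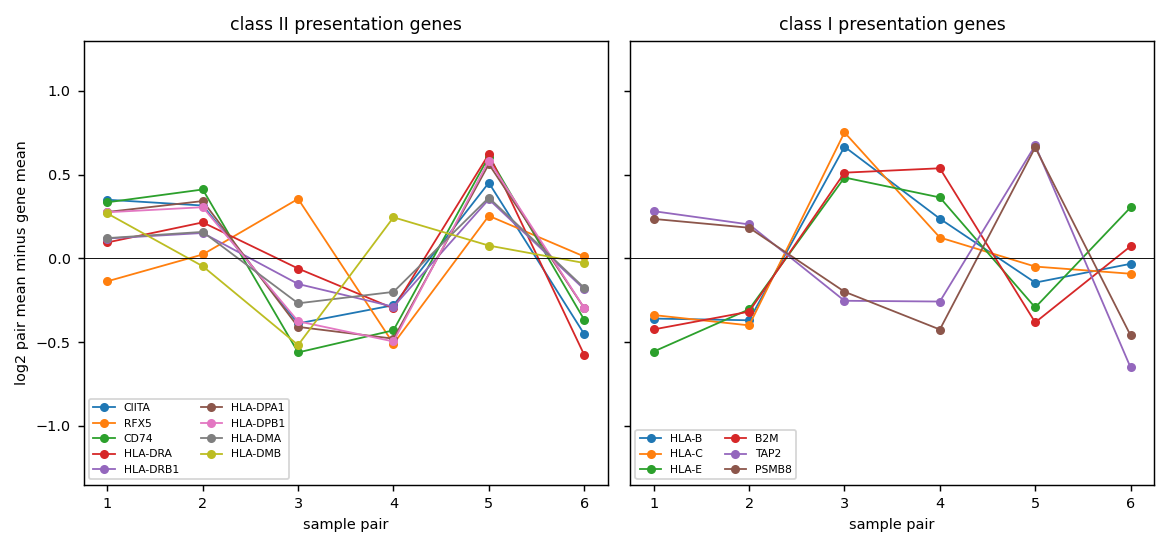
Log2 mean of both libraries of a pair, minus the gene's mean over 6 pairs, for 9 of the 10 class II genes (left, HLA-DQB1 left out for its low level) and for 6 class I genes chosen after their values were seen (right). Of the 9 class II genes 7 have pairs 1, 2 and 5 as their 3 highest, and HLA-B, HLA-C, HLA-E and B2M are highest in pair 3 or 4.

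Per length of transcript the 10 genes spanned more than 3 orders of magnitude on the CPM per kilobase scale. The APPRIS principal transcript of GENCODE 29 was used as the length. CD74 had a mean level of 1276 CPM per kb over the 12 libraries, HLA-DRA 224 and HLA-DPA1 140. HLA-DMA, HLA-DRB1 and RFX5 followed at 57.5, 54.6 and 52.6 CPM per kb. Their ranges over libraries overlapped, at 44.3 to 75.2, 40.9 to 71.3 and 34.2 to 71.8, and their order within libraries was not tested. HLA-DMB stood at 37.7 and HLA-DPB1 at 30.3 CPM per kb. The measured level of the beta chain of HLA-DP was thus lower per length than that of its alpha chain, as was HLA-DRB1 relative to HLA-DRA. Both HLA-DP chains and HLA-DRB1 carry the uncertainty of read assignment given above. How well reads from the alleles of these cells match the reference was not tested, for these genes or for HLA-DQB1. CIITA stood at 3.04 CPM per kb, with a length of 16059 bases of which 12533 are annotated as 3′ UTR, and HLA-DQB1 was lowest at 0.617. With the union of all annotated exons as the length, HLA-DRB1 stood at 54.6 and HLA-DPA1 at 41.4 CPM per kb, so that the middle of this order depends on the gene model.

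**Figure D5:**
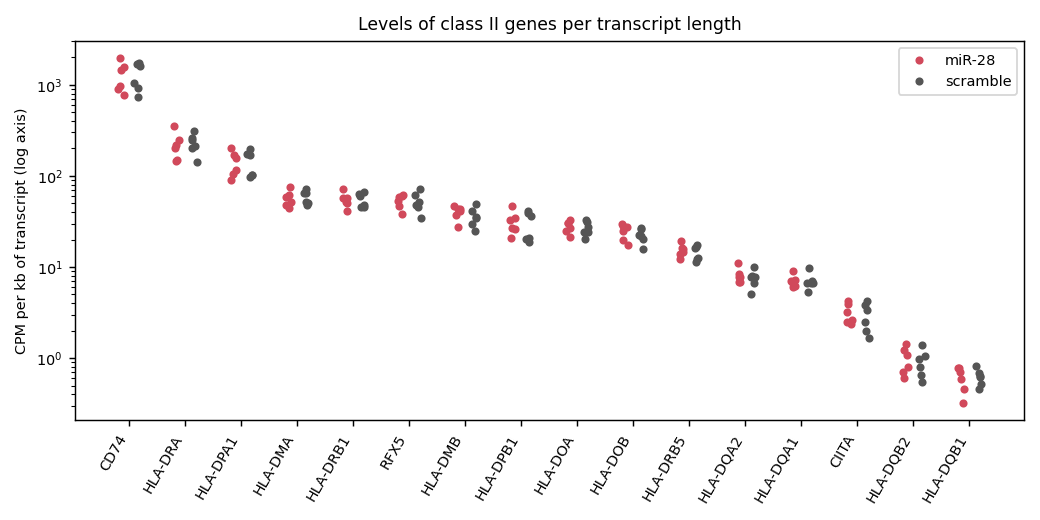
Level per kilobase of principal transcript (log axis) of 16 class II genes in each miR-28 (red) and scramble (grey) library, ordered by the mean. CD74 is highest at a mean of 1276 CPM per kb and HLA-DQB1 lowest at 0.617, and the groups overlap for every gene.

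Of 10 other class II genes listed, 7 were measured: the DR beta genes HLA-DRB5 and HLA-DRB6, the DQ genes HLA-DQA1, HLA-DQA2 and HLA-DQB2, and HLA-DOA and HLA-DOB, whose product HLA-DO restrains HLA-DM. The log2 fold change lay above 0 in all 7 (median 0.092), and 0 passed in limma. Without pair 3, 5 of the 7 were above 0, and without pairs 3 and 6, 3 of the 7, with a median of -0.000084. HLA-DOB, the highest at 0.15, averaged 35.2 ± 7.10 CPM in miR-28 and 31.5 ± 5.62 CPM in scramble libraries (SD, n = 6 each). Unlike HLA-DRA, it was highest in pair 3 and lowest in pair 1.

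Of the 6 genes of the promoter complex beside RFX5, 0 passed in limma, 4 were above 0 and the median was 0.052. RFXANK, a partner of RFX5, averaged 48.6 ± 10.3 CPM in miR-28 and 47.0 ± 9.72 CPM in scramble libraries, and RFXAP, the other partner, 17.7 ± 2.28 CPM in miR-28 and 16.7 ± 2.63 CPM in scramble libraries (SD, n = 6 each). RFXANK had the pair order of HLA-DPA1. NFYA, the subunit of NF-Y that recognises CCAAT, was below its scramble partner under miR-28 in 6 of 6 pairs. The same sign in 6 of 6 pairs was seen in 4.26% of all genes. It stood at 45.9 ± 10.7 CPM in miR-28 and 66.2 ± 28.9 CPM in scramble libraries (SD, n = 6 each), where 113.5 CPM in pair 3 and 88.8 CPM in pair 4 were the highest. Its log2 fold change of -0.46 did not pass in limma, with an adjusted p of 1 with batch and 0.607 with the block, and was -0.27 without pair 3. NFYB and NFYC, the other NF-Y subunits, had log2 fold changes of -0.04 and 0.08, and CREB1, which binds next to RFX, had 0.06.

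Upstream of CIITA, 0 of 10 measured regulators passed in limma, 3 were above 0 and the median log2 fold change was -0.027. PAX5, the B cell identity factor, averaged 304.1 ± 85.3 CPM in miR-28 and 259.8 ± 78.8 CPM in scramble libraries, and BCL6, the repressor that maintains the germinal centre state, 653.2 ± 133.4 CPM in miR-28 and 733.1 ± 194.3 CPM in scramble libraries (SD, n = 6 each). BCL6 was below its scramble partner in 6 of 6 pairs, where 4.26% of all genes had the same sign in all pairs. Its log2 fold change of -0.15 did not pass in limma and was -0.05 without pairs 3 and 6. Of 11 coactivators and chromatin regulators 7 were above 0 (median 0.038). Among them SMARCA4, the motor of the BAF remodelling complex, also had the same sign in all pairs. It exceeded its scramble partner in 6 of 6, at 589.8 ± 232.9 CPM in miR-28 and 538.8 ± 257.1 CPM in scramble libraries (SD, n = 6 each). The log2 fold change of SMARCA4 was 0.18, and 0.07 without pairs 3 and 6. None of the 11 passed in limma.

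Downstream, in the endosomes, 5 of 11 measured processing genes were above 0 (median -0.026) and 5 of 11 trafficking genes (median -0.019), and 0 passed in limma. CTSC, a lysosomal protease, averaged 95.3 ± 34.7 CPM in miR-28 and 87.0 ± 33.4 CPM in scramble libraries (SD, n = 6 each) and shared the 3 highest pairs of CD74. CTSZ, another cathepsin, was highest in pair 6. AP2M1, an adaptor of endocytosis, averaged 321.6 ± 136.1 CPM in miR-28 and 326.6 ± 123.7 CPM in scramble libraries (SD, n = 6 each). In the interferon gamma pathway 3 of 8 genes were above 0 (median -0.029), in costimulation and adhesion 4 of 7 (median 0.019), and in class I presentation 4 of 19 (median -0.105), with 0 that passed in limma. The 3 most abundant class I genes, B2M, CANX and CALR, had log2 fold changes of -0.14, -0.14 and -0.16. Without pairs 3 and 6 these were -0.04, -0.003 and -0.04.

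The genes outside these lists whose levels over the 12 libraries were most like the average of the 10 genes were TUBA1B-AS1, NAA80, TOMM20, DPH6 and LINC01003. Their Pearson r with the mean z-score of the 10 genes ran from 0.969 for LINC01003 to 0.975 for TUBA1B-AS1, out of 10284 candidates averaging at least 5 CPM. The libraries share pairs and scaling, so this is a description. TOMM20, a receptor of mitochondrial protein import, was the only abundant one, at 206.0 to 466.6 CPM in miR-28 and 200.1 to 458.2 CPM in scramble libraries.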

How the data were processed

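RNA of 12 Ramos libraries was measured, 6 with miR-28 and 6 with scramble. Per the submitters' processing notes the tools were CASAVA (1.8.2), cutadapt and RSEM (1.2.3), and the build was GRCh38; roles and order are not stated. Normalization, low-gene filter and strand setting: not given in the sources used here. Deposited by the authors was 1 table with a signal value for each gene and library. All values of a library are multiples of 1 step (100% whole within 0.01 reads). In 5 libraries the smallest value above 0 is 2 reads. Reads recovered with these steps gave, in edgeR, TMM factors within 8.88e-16 of those the values imply: the signal is TMM-scaled CPM. Each gene reached 1.15 CPM or more in some library. The value of 3 reads was 0.0830 to 0.181 CPM, for counting error only.

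The name table held 12528 of 12725 identifiers. Positions, transcript lengths and 3′ UTRs are from GENCODE 29, perhaps not the authors' release.

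The main test was limma 3.58.1 (trend, robust off, R 4.3.3) on log2(CPM + 1) with batch and group, with Benjamini-Hochberg adjustment over 12725 genes and a threshold of 0.05. This scale understates changes of low genes such as HLA-DQB1. The members and lists were chosen with earlier results of these data known. Named were all members, the measured other class II and promoter complex genes, the 3 most abundant genes of each other list, any called gene and the 5 most alike genes. Genes outside this rule are marked as chosen after their values were seen. 1 measured class I gene is not reported here by name.

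The labels number the pairs. The deviations of a pair's libraries from their group means correlated by 0.740 to 0.906 over genes averaging at least 5 CPM, and each library matched its own partner best, so a fit with the pair as a block was set beside the main one. Alternatives were edgeR 4.0.16 and DESeq2 1.42.0 on recovered reads, other scalings, pseudocounts of 0.25 and 4, a filter at a mean of 5, and fewer pairs. All fits were first checked on simulated counts, which held none of the distance between pairs seen here. That check cannot show how the fits behave with such a distance.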

Additional observations from a re-analysis of the deposited data

Results flagged for a closer look

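Of 102 groups of 6 libraries (51 named genes in each group), 4 held 1 library far from the other 5, where chance gives about 5% of groups. HLA-DQA2, an alpha chain gene of the DQ family with the close copy HLA-DQA1, was highest in the miR-28 library of pair 5 at 16.8 CPM. CD81, a tetraspanin of the B cell surface, was lowest in the scramble library of pair 3 at 248.1 CPM. ICAM1, an adhesion receptor, stood at 183.0 CPM in the scramble library of pair 4, and CD40, the receptor of T cell help, at 62.4 CPM in the same library. Of the 10 genes described above 0 had such a library.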

How the results depend on the processing

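The count of 0 of the 10 genes passing held under every alternative run, and the median log2 fold change of the 10 ranged from -0.070 (without pairs 3 and 6) to 0.042 (batch 2 only). The number of all genes that passed, 2 with limma and batch, was 0 with edgeR on recovered reads, with CPM without TMM factors, with a pseudocount of 4, with a mean of 5 or more, in batch 1 only, in batch 2 only and without pairs 3 and 6; the cause was not tested. It was 1 with edgeR and the replicate block and 3 with limma and the replicate block, and 0 in each of the fits that left out 1 pair. Both genes concerned, MIR28 and SPCS3, kept their direction throughout, with 26 results that no longer passed. With the pair as a block no call among the 10 genes changed. CPM without TMM factors moved the log2 fold change of all genes by a median of 0.015. Over the 10388 genes with a mean of 5 CPM or more, the median SE was 0.201 with batch and 0.0944 with the block. By the intervals of the 10 genes themselves, small changes of these genes were not detectable. HLA-DQB1 is limited by its few reads, and HLA-DRB1 by related genes that may share its reads.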
